A study of Rattus norvegicus with 12 samples.

Results

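H9c2 cells given methylmalonic acid (MMA) together with folic acid (FA) were compared with control cells by RNA-seq, 3 libraries against 3, out of 12 libraries in the series. H9c2 is a clonal line from embryonic rat heart that grows as dividing myoblast-like cells, and the labels call it cardiomyocytes. The other libraries are 3 of cells given MMA alone and 3 of cells given FA alone, and the controls are labelled only as controls. No dose, time or vehicle is given in the sources used here. Nothing says that the 3 libraries of a group came from separate cultures, so the p-values measure only the spread between these libraries, which may be technical. Values are TPM, a unit that divides reads by transcript length and scales every library to one fixed total. Of the 30562 genes in the table, 12263 averaged 1 TPM or more across all 12 libraries and were tested, and the comparison covers all of them.

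Methylmalonic acid builds up when methylmalonyl-CoA mutase, a mitochondrial enzyme that needs cobalamin and is encoded by Mmut, does not keep pace with the breakdown of propionate, odd-chain fatty acids and some amino acids. Folate carries single-carbon units for nucleotide synthesis, and passes them to homocysteine through methionine synthase, the other cobalamin-dependent enzyme of mammals, encoded by Mtr. In muscle lineages, myogenic factors such as MyoD switch on sarcomere genes, Id proteins hold those factors back and are themselves targets of bone morphogenetic protein (BMP) signalling through Smads, and division ends as the cells differentiate.

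The label of the cells was set against 26 cardiomyocyte markers in the table. Defining genes of working heart muscle were at or near 0: the control mean was 0.0333 TPM for Myh6, 0.03 TPM for Actn2, 0.0233 TPM for Ryr2 and 0.0833 TPM for Actc1, and Myl3 was listed at 0 in all 12 libraries. With both acids these genes stayed there, with 0.04 TPM for Myh6, 0.0367 TPM for Actn2, 0.0167 TPM for Ryr2 and 0.167 TPM for Actc1. Only 10 of the markers were tested, among them Tnnt2, Tnnc1, Gja1, Gja5, Slc8a1 and Cox6a2. Nkx2-5, a heart transcription factor, averaged 11 TPM in control and 11.3 TPM with both acids. Epithelial, endothelial and leukocyte markers were low or carried by a few genes. The 8 epithelial markers summed to 19.9 to 22.1 TPM in control and 26.8 to 33.9 TPM with both acids, nearly all of it Krt8, and Epcam averaged 0.02 TPM in control. The 12 endothelial markers summed to 32.2 to 35.3 TPM in control and 35.3 to 42.5 TPM with both acids, carried by Flt1 and Eng, with Cldn5 and Emcn at 0 throughout. The 14 leukocyte markers summed to 16.2 to 17.3 TPM in control and 15.9 to 18.0 TPM with both acids. Fibroblast markers were high as a sum, with the 14 at 11841 to 12593 TPM in control and 12264 to 13787 TPM with both acids. Col1a2, Col1a1, Vim, Fn1 and S100a4 led them, at control means of 4722, 2133, 1881, 1759 and 1106 TPM, while Fap and Tcf21 were at 0 throughout. Postn, Pdgfrb and Thy1 were at control means of 224, 185 and 158 TPM. Lum was at 3.76 TPM, and Dcn, Pdgfra and Cd34 were near 0, at 0.427, 0.0667 and 0.05 TPM. The part of other cell types in the differences was not tested.

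With both acids together, many of the genes tested differed from control on the deposited scale, most of them by little. With TPM as deposited, 818 genes were higher and 4000 lower than in control (limma, Benjamini-Hochberg adjusted p under 0.05, which is what "called" means below), that is 6.67% and 32.6% of the genes tested. These shares are the background for the gene lists that follow. MMA alone gave 3.85% higher and 16.5% lower (8.16% and 6.9% after the scaling described next), and FA alone 3.67% higher and 8.7% lower (5.78% and 3.88%), against the same 3 control libraries. The lower side depends on the scale. The most abundant genes took a larger share of the total with both acids: the 100 most abundant held 37.8% ± 0.477 of TPM against 35.3% ± 0.295 in control (SD, n = 3 each), and the 13 genes of mitochondrial DNA 10.6% ± 0.476 against 9.58% ± 0.27. For each share the 3 and 3 libraries did not overlap, and the exact two-sided permutation p was 0.1, the smallest that 3 against 3 allow. The median gene was 0.12 lower on the log2 scale as deposited; how much of this goes with these shares was not tested. Scaling each library by the median ratio of its genes moved the median gene to 0.00 and the counts to 1898 higher and 1710 lower, 15.5% and 13.9%. All 818 genes called higher as deposited were also called higher after scaling, 1710 were lower under both, and 0 genes were called in opposite directions. Few differences were large: 11 genes were higher and 42 lower by at least 2-fold as deposited, and 17 and 22 after scaling.

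**Figure D1:**
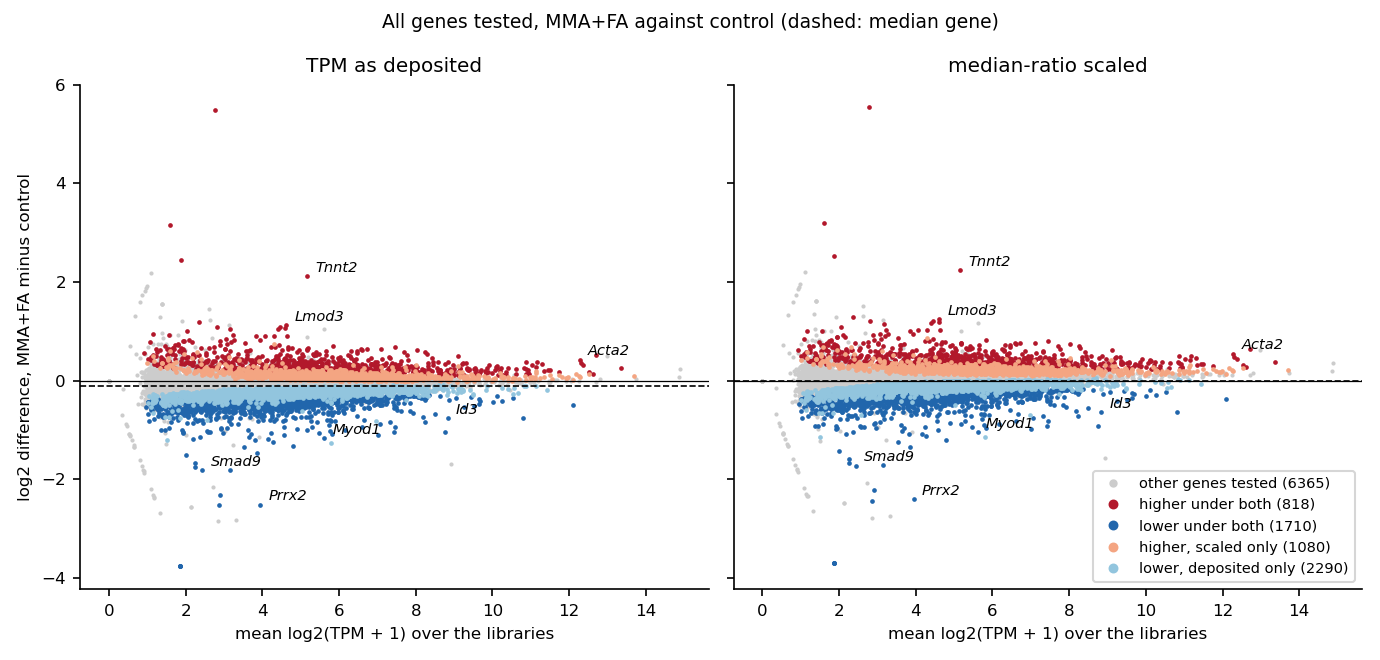
Log2 difference between MMA+FA and control (y) against the mean log2(TPM + 1) over the libraries (x) for the 12263 genes tested, 1 point per gene, with TPM as deposited (left) and median-ratio scaled (right). The whole cloud sits lower on the left, where 2290 genes were called lower only there (light blue). On the right 1080 genes were called higher only there (orange). Tnnt2 and Prrx2 lie far outside the cloud in both panels.

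Muscle genes were the clearest group on the higher side. Of 50 sarcomeric and skeletal muscle genes listed, 24 were tested, and 14 of these rose and 0 fell with TPM as deposited, where 6.67% of all genes were called higher (limma; at an unadjusted p under 0.05, 16 were higher and 0 lower). Their median was 0.33 on the log2 scale, against -0.12 over all genes tested. After scaling 17 rose, with a median of 0.45 beside 0.00. The other 10 tested members lay between -0.25 (Tnnt3) and 0.29 (Myoz2) and did not pass the test as deposited.

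Tnnt2, cardiac troponin T of the thin filament, was listed at 15, 18.9 and 14.5 TPM in control and at 84.6, 67.5 and 68.7 TPM with both acids. The lowest library with both acids was more than 3 times the highest control library. This was a log2 difference of 2.12 ± 0.10 (SE, limma adjusted p = 2.63e-07), and 2.24 after scaling. Its scaled values were 14.4, 18.2 and 13.8 in control and 87.4, 72.0 and 70.8 with both acids. MMA alone gave 22.7, 19.7 and 21.9 TPM and FA alone 43.8, 47.1 and 42.4 TPM, so the 4 groups stood in the order control, MMA, FA and both without overlap. The step from FA to both was 0.71 (limma adjusted p = 0.00406) and from MMA to both 1.73 (limma adjusted p = 4.58e-06).

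Lmod3, a leiomodin that nucleates actin filaments in sarcomeres, went from 15.6, 14.8 and 16.3 TPM to 35.8, 29.4 and 41.8 TPM, a log2 difference of 1.13 ± 0.12 as deposited and 1.25 scaled (limma adjusted p = 7.88e-05 as deposited). Acta1, the actin of skeletal muscle and fetal heart, went from 3.75, 3.87 and 3.69 TPM to 10.4, 7.93 and 9.39 TPM, which was 1.10 ± 0.11 as deposited and 1.20 scaled (limma adjusted p = 4.1e-05 as deposited). With MMA alone Acta1 was at 2.54, 3.43 and 3.18 TPM, below every control library but not called (limma adjusted p = 0.128), and with FA alone at 6.37, 6.01 and 5.18 TPM. The difference with both acids exceeded the sum of the single differences by 0.82 (limma adjusted p of the interaction = 0.0205). Myl4, the atrial and embryonic light chain of myosin, rose from 5.27 to 10.2 TPM, by 0.84 ± 0.10. Lmod3, Acta1 and Myl4 were each higher with both acids than with MMA alone and than with FA alone.

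Smaller rises came from abundant members. Tnnc1, the calcium-binding troponin of heart and slow muscle, was at 306, 314 and 321 TPM in control and 428, 394 and 354 TPM with both acids (log2 difference 0.32 ± 0.09, limma adjusted p = 0.0117). That call was lost as deposited without the first library with both acids (limma adjusted p = 0.0513), and held after scaling. With FA alone Tnnc1 was higher than control by 0.34 (limma adjusted p = 0.028), and both acids differed from FA by -0.02 (limma adjusted p = 0.906). Casq2, the calcium store protein of the sarcoplasmic reticulum, rose from 388 to 490 TPM on average, by 0.34 ± 0.04. With FA alone Casq2 was 0.23 higher than control (limma adjusted p = 0.00619). Its step from FA to both was 0.10 as deposited (limma adjusted p = 0.0926) and 0.18 scaled (limma adjusted p = 0.0231). Trim63, the muscle ubiquitin ligase MuRF, was at 17.2, 16.7 and 17.8 TPM in control and 26.5, 25.2 and 24.6 TPM with both acids, which was 0.53 ± 0.07 higher. With MMA alone it was 15 TPM and with FA alone 19.5 TPM, and the interaction was 0.55 (limma adjusted p = 0.0146). Without the first control library, only 1 gene of the muscle list had an interaction called above 0 under either scaling. At least 1 of the interaction calls of Acta1 and Trim63 was thus lost in that fit.

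Genes that muscle shares with smooth muscle moved the same way with smaller steps. Of 19 contractile genes of smooth muscle, all tested, 9 rose and 0 fell as deposited (median 0.18, background 6.67% higher). After scaling 16 rose (median 0.30, background 15.5%). Acta2, the alpha actin of smooth muscle and among the most abundant messages here, was at 4333, 4280 and 4291 TPM in control and 5912, 5687 and 5723 TPM with both acids, 0.42 ± 0.06 higher as deposited and 0.55 scaled. The tropomyosins Tpm1 and Tpm2 rose by 0.25 ± 0.03 and 0.26 ± 0.04, and Myl9, the regulatory light chain, by 0.26 ± 0.04. Vcl, the adhesion protein vinculin, fell by 0.17 with MMA alone, rose by 0.14 with FA alone, and rose by 0.30 ± 0.03 with both (limma adjusted p = 0.000104), so that its interaction was 0.33 (limma adjusted p = 0.0112). Cavin4, a caveolar protein of muscle, rose by 0.72 ± 0.08 and was higher than with either acid alone. Camk2a, a subunit of calcium/calmodulin-dependent kinase II, rose from 2.37 to 6.82 TPM on average, by 1.20 ± 0.14, and was also higher with MMA alone (0.54) and with FA alone (0.83). Among 22 tested genes of calcium handling and CaM kinase II, Camk2a included, 4 rose and 5 fell as deposited (median -0.02), and 6 rose and 4 fell after scaling (median 0.09), beside backgrounds of 6.67% higher and 32.6% lower, and 15.5% and 13.9% scaled. The 4 that fell after scaling became 1 or 2 without any of the 6 libraries.

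Of 18 tested transcription factors of muscle and heart, 4 rose and 5 fell as deposited (background 6.67% higher and 32.6% lower), and 7 rose and 2 fell after scaling (background 15.5% and 13.9%), so the falls were no more frequent than over all genes. The 5 became 2 when the third control library was left out, and the 2 became 1 without the second or the third library with both acids or the first or the third control library. Myod1, the myogenic factor MyoD, stood at 74.2, 74.1 and 69.7 TPM in control and 34.7, 28.2 and 32.3 TPM with both acids. Every library with both acids lay below every library of the other 3 groups. It was lower by -1.17 ± 0.10 as deposited (limma adjusted p = 1.42e-05) and -1.05 scaled, and also lower than with MMA (-0.90) and FA (-0.77). Myog, the later factor myogenin, averaged 15.8 TPM in control and 18.4 TPM with both acids; its difference of 0.22 did not pass as deposited (limma adjusted p = 0.0519) and did after scaling (0.34, limma adjusted p = 0.00986). Mef2c, a partner of both, rose by 0.40 ± 0.06, and Cited2, a co-activator needed in heart development, by 0.53 ± 0.07.

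**Figure D2:**
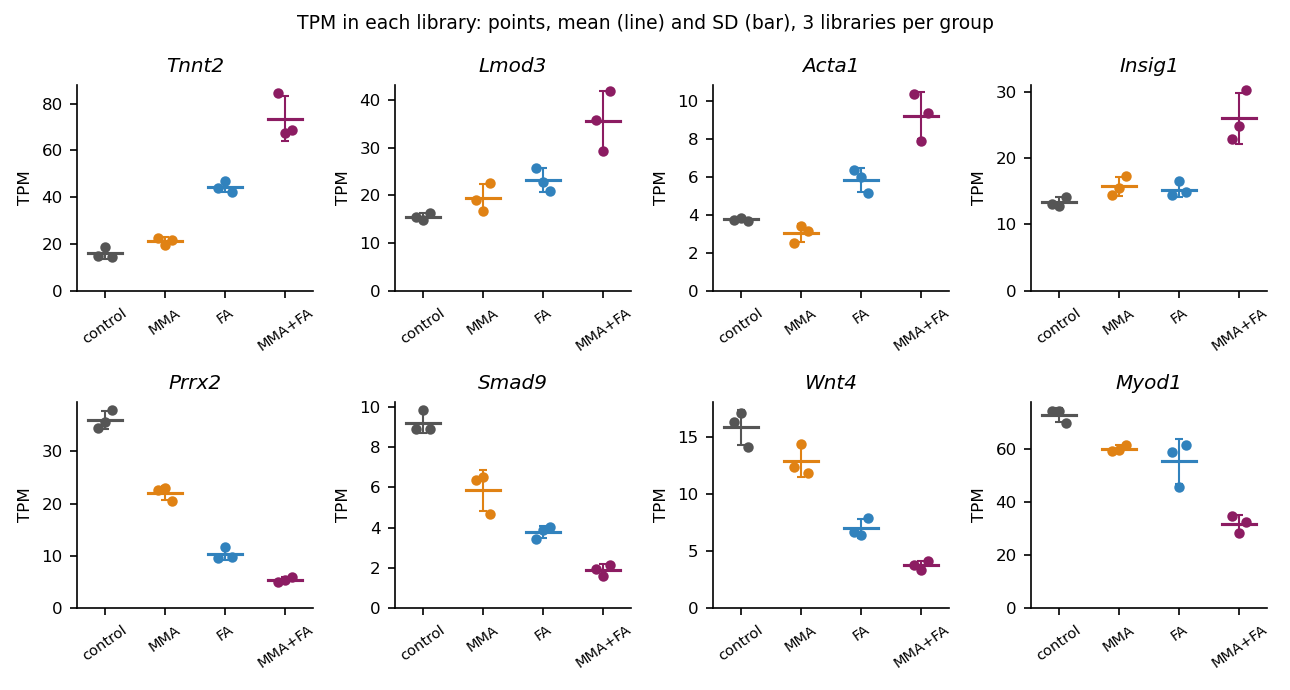
TPM (y) of 8 genes in each of the 12 libraries by group (x), with the mean as a line and the SD as a bar. Tnnt2, Lmod3, Acta1 and Insig1 are highest and Prrx2, Smad9, Wnt4 and Myod1 lowest in the MMA+FA libraries. For Tnnt2 and Prrx2 the 4 groups are in the order control, MMA, FA and MMA+FA without overlap.

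The start regions of Tnnt2 and Acta1 are shown as those of a pair of muscle genes that rose; each is 250 bases before to 50 after the annotated start in the RefSeq table of build GRCr8 (not the build of the deposited values), 5′ to 3′ on the strand of the gene. Capitals mark 3 motifs known from muscle promoters, searched on both strands: the E-box (CANNTG) that MyoD and its relatives bind, MCAT (CATTCC) bound by TEAD factors, and the CArG box of serum response factor. Tnnt2 has 2 starts in the table, and the first listed is shown, at chr13:49818873-49819172 on the plus strand. Acta1 lies at chr19:68784145-68784444 on the minus strand.
Tnnt2: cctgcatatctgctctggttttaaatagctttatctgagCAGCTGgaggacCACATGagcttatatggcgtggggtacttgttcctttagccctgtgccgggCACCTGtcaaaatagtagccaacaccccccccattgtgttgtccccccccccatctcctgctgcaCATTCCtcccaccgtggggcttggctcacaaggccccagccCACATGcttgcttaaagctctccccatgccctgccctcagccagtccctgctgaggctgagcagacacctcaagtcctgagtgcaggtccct
Acta1: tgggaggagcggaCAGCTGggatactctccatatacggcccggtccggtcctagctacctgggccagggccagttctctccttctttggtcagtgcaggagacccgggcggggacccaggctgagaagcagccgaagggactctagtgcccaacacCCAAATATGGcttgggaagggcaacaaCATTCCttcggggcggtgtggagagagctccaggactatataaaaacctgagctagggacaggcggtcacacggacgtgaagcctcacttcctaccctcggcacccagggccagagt
The Tnnt2 window holds 4 E-boxes and 1 MCAT and no CArG box; the Acta1 window holds 1 of each. Of the 24 muscle genes tested, 19 had a promoter in the table, and with the first start of each gene 17 held an E-box (89.5%), 4 an MCAT (21.1%) and 2 a CArG box (10.5%). Over 9232 genes tested with a promoter, the shares were 61.3%, 11.1% and 1.33%, and over all 33469 promoters 72.1%, 14.2% and 1.64%. These counts describe letters in the window and were not tested.

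Among the tested genes that mark the heart under strain, more were called higher than lower. Nppa, Nppb and Myh7 were too low to be tested, with control means of 0, 0 and 0.01 TPM. With both acids they averaged 0.107, 0.0667 and 0.00667 TPM. Of 14 tested genes of heart stress and hypertrophy, 7 rose and 2 fell as deposited (median 0.18, background 6.67% higher and 32.6% lower), and 8 rose and 1 fell after scaling (median 0.29, background 15.5% and 13.9%). The 2 that fell became 1 without the second library with both acids or the second control library and 0 without the third control library; the 1 became 0 without any of these 6 libraries except the first control library. Edn1, which encodes the vasoconstrictor endothelin, was at 12.2, 17.9 and 17.4 TPM in control and 30.1, 37.6 and 34.8 TPM with both acids, 1.07 ± 0.13 higher. It was 0.99 higher with MMA alone and 0.71 higher with FA alone, so the values with both acids lay in the range of MMA alone (28.8 to 35.4 TPM) or slightly above. Its receptor Ednra behaved otherwise: 7.57 TPM in control, 6.75 TPM with MMA, 9.19 TPM with FA and 11.5 TPM with both, a rise of 0.54 ± 0.07 against control and an interaction of 0.44 (limma adjusted p = 0.0324). Fhl2, a LIM protein of the Z-disc, rose by 0.33 ± 0.05 with both acids and was not called with either acid alone, with an interaction of 0.33 (limma adjusted p = 0.0427). Among the other cardiomyocyte markers, Gja5 (connexin of atria and conduction tissue) rose from 96.7 to 134 TPM, by 0.47 ± 0.09, and Gja1 (the main connexin of ventricle and many other cells) fell from 50.7 to 37.2 TPM, a difference of -0.43 ± 0.04. Slc8a1, the sodium-calcium exchanger, rose by 0.47 ± 0.07. Cox6a2, the muscle form of a cytochrome oxidase subunit, went from 135, 132 and 130 TPM to 75.6, 96.3 and 59.0 TPM, a difference of -0.80 ± 0.13. Atp2a2, the calcium pump of the sarcoplasmic reticulum, was called on 1 of the 2 scales: it was at 195.7 TPM in control and 193.4 TPM with both acids, -0.02 as deposited (limma adjusted p = 0.735), and 0.11 higher after scaling (limma adjusted p = 0.0311), a call that did not survive leaving out any of the 6 libraries.

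Most called genes of cholesterol synthesis and uptake rose with both acids. These genes are switched on together by the transcription factor SREBP when membrane sterol is low. Of 28 tested, 14 rose and 3 fell as deposited (median 0.19, background 6.67% higher and 32.6% lower). After scaling 19 rose and 0 fell (median 0.31, background 15.5% and 13.9%). The 14 became 9 without the third library with both acids, in which these genes were highest. Insig1, which holds SREBP in the endoplasmic reticulum and is itself its target, went from 13.1, 12.8 and 14.2 TPM to 22.8, 24.9 and 30.2 TPM, 0.90 ± 0.10 higher. Neither acid alone gave a call for Insig1 (0.22 with MMA and 0.18 with FA), and both differences from the single acids were called (0.68 and 0.72); the interaction of 0.51 did not pass (limma adjusted p = 0.0724). Acat2 and Msmo1, enzymes at the start and in the later part of the pathway, rose by 0.65 ± 0.10 and 0.43 ± 0.06. Sc5d, Lbr and Ebp, also late enzymes, were the 3 that fell as deposited, by 0.21, 0.21 and 0.17; none was called after scaling, and the 3 became 1 without any of the 6 libraries except the third control library.

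On the lower side the largest fall among the genes named here was that of Prrx2, a homeobox factor of embryonic mesenchyme. It was at 34.4, 35.7 and 37.9 TPM in control and 5.04, 5.39 and 5.98 TPM with both acids, -2.52 ± 0.08 as deposited (limma adjusted p = 4.48e-09) and -2.40 scaled. The scaled values were 33.0, 34.4 and 36.0 against 5.20, 5.75 and 6.16. MMA alone gave 22.7, 22.9 and 20.5 TPM and FA alone 9.65, 11.7 and 9.85 TPM. The groups again did not overlap, and the interaction was -0.13 (limma adjusted p = 0.588). Of 22 tested mesenchymal factors 7 fell and 2 rose (median -0.12, equal to that of all genes, of which 32.6% were called lower). After scaling 5 fell and 3 rose (background 13.9% and 15.5%). The 5 became 3 without the first or second library with both acids or the second control library. Foxf2 fell by 0.91 ± 0.09 as deposited and by 0.78 scaled, from 71.9 to 37.9 TPM. Runx2, the factor of bone formation, fell by 0.56 ± 0.06 and by 0.44.

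BMP and Id genes were mostly lower. Of 27 tested members, 16 fell and 3 rose as deposited (median -0.18), and 12 fell and 4 rose after scaling (median -0.07), beside backgrounds of 32.6% and 13.9%. Smad9, a receptor-regulated Smad of the BMP branch, was at 8.91, 9.85 and 8.93 TPM in control and 1.97, 1.59 and 2.14 TPM with both acids, -1.82 ± 0.11 as deposited (limma adjusted p = 1.67e-06) and -1.73 scaled. Id2 went from 123, 141 and 138 TPM to 62.6, 67.4 and 79.8 TPM, -0.94 ± 0.10. Id3, the most abundant of the family, went from 575, 610 and 595 TPM to 345, 333 and 374 TPM, -0.76 ± 0.05 as deposited and -0.64 scaled (limma adjusted p = 2.35e-06 as deposited). Id4 was lower by -0.77 ± 0.08. With FA alone Id2, Id3 and Id4 also fell, by 0.77, 0.39 and 0.52. With MMA alone none of these 3 Id genes was called, at -0.10, -0.10 and 0.00. With both acids Id3 was lower than with FA alone (-0.37, limma adjusted p = 0.00322), while Id2 (-0.17) and Id4 (-0.25) were not called against FA.

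In the Wnt pathway 7 of 23 tested genes fell and 1 rose, near the share of all genes lower. After scaling 5 fell and 3 rose (background 13.9% and 15.5%). The 5 became 3 without the second library with both acids or without the second or the third control library. The ligand Wnt4 was at 16.3, 17.1 and 14.1 TPM in control and 3.80, 3.33 and 4.15 TPM with both acids, -1.82 ± 0.10 (limma adjusted p = 7.94e-07) and -1.72 scaled. It was 6.99 TPM on average with FA alone and was not called with MMA alone (-0.28, limma adjusted p = 0.0694). The receptor Fzd4 fell by 0.80 ± 0.07. Frat2, which binds the kinase GSK-3 and so favours Wnt signalling, rose by 0.82 ± 0.14, and by as much with MMA alone (0.99). Car1, a carbonic anhydrase, fell from 7.79 to 1.60 TPM, by 1.76 ± 0.10. Negr1 and Nrn1, 2 cell-surface proteins known from neurite growth, fell by 1.47 ± 0.09 and 1.24 ± 0.07. Samd11 and Pde4a, a phosphodiesterase of cyclic AMP, fell by 1.68 ± 0.11 and 1.19 ± 0.11. Each of these 5 genes was lower with both acids than with either acid alone. In all, 419 genes were lower and 90 higher as deposited than in control, than with MMA and than with FA, and 142 and 89 under both scalings. These counts need a call against FA, which rested on the other groups and on single libraries. With only the FA and MMA+FA libraries fitted, 19 genes were lower and 4 higher than with FA, in place of 1092 and 196. Without the first FA library they were 294 and 63.

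Chemokine and interferon genes were mostly lower where they were called. Of 26 tested chemokine, cytokine and NF-kB genes, 14 fell and 3 rose as deposited (median -0.26, background 32.6% lower and 6.67% higher). After scaling 10 fell and 4 rose (median -0.15, background 13.9% and 15.5%). The chemokine Cxcl1 went from 72.9, 74.7 and 99.4 TPM to 32.3, 47.7 and 35.5 TPM, -1.08 ± 0.16. Ccl7 went from 8.09, 3.43 and 6.89 TPM to 0.77, 1.78 and 1.75 TPM, -1.52 ± 0.27, with all 3 libraries below the controls. Csf1, the growth factor of macrophages, went from 176, 181 and 183 TPM to 101, 93.7 and 98.6 TPM, -0.87 ± 0.05 (limma adjusted p = 9.8e-07), and was lower than with MMA (-0.51) and FA (-0.48). Relb, an NF-kB subunit, and Nfkbia, its inhibitor and target, fell by 0.73 ± 0.09 and 0.51 ± 0.05. Tnfaip6, a secreted hyaluronan-binding protein of the same list, rose by 0.81 ± 0.11. Of 16 tested interferon response genes 8 fell and 0 rose as deposited, and 5 fell after scaling, beside the same backgrounds. Gbp2 and Irf1, an interferon-induced GTPase and a transcription factor, fell by 0.60 ± 0.06 and 0.57 ± 0.07.

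Genes of the last phases of the cell cycle gave the sharpest contrast between both acids and MMA alone. Of 41 G2/M genes, all tested, 30 fell and 0 rose against control as deposited (median -0.28, background 32.6% lower), and 22 fell after scaling (median -0.16, background 13.9%). Against MMA alone, where 9.53% of all genes were called lower, all 41 were lower (median -0.51); after scaling 40 were (median -0.47, background 6.19%). Leaving out each library of that comparison in turn left 40 to 41 lower as deposited and 38 to 40 scaled. With MMA alone, against control, 20 of the 41 were higher and 0 lower (median 0.18, background 3.85%), but 8 without the first control library and 12 without the third MMA library. After scaling 29 were higher with MMA alone (background 8.16%), and 19 without the first control library. With FA alone 0 were higher and 5 lower (median -0.11), near the background of 8.7%, and 1 was lower after scaling (median -0.06, background 3.88%). Against FA alone 17 were lower with both acids (median -0.19, background 8.9%), and 5 after scaling (background 2.46%). The 17 became 3 and 11 without the first and the third FA libraries and 10 and 4 without the first and second libraries with both acids.

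Cdk1, the kinase that drives entry into mitosis, was at 138, 148 and 148 TPM in control, 163, 161 and 169 TPM with MMA, 133, 129 and 135 TPM with FA and 107, 107 and 119 TPM with both. Each group occupied its own range. The difference from control was -0.38 ± 0.05 (limma adjusted p = 0.000154) and from MMA alone -0.56 (limma adjusted p = 3.48e-05). Nusap1, a spindle protein, was at 70.9, 76.2 and 81.4 TPM in control and 51.6, 48.9 and 53.9 TPM with both acids, -0.56 ± 0.06, while MMA alone gave 85.0, 80.7 and 78.1 TPM. Hmmr, a receptor of hyaluronan that also sits on spindles, went from 48.3, 47.0 and 50.6 TPM to 29.7, 27.6 and 30.3 TPM, -0.72 ± 0.07. Mki67, the proliferation antigen, went from 74.3, 72.4 and 68.6 TPM to 47.6, 38.4 and 52.3 TPM, -0.64 ± 0.09. The mitotic checkpoint kinase Bub1b and the phosphatase Cdc25b fell by 0.42 ± 0.05 and 0.46 ± 0.05, and Top2a, the topoisomerase of dividing cells, by 0.42 ± 0.06. These differences from control are as deposited and were smaller after scaling. Scaled, they were -0.26 for Cdk1, -0.43 for Nusap1, -0.60 for Hmmr, -0.52 for Mki67, -0.30 for Bub1b, -0.33 for Cdc25b and -0.295 for Top2a, all still called. In bulk libraries, fewer cells in these phases and less RNA per cell cannot be told apart.

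For 21 of the 41 genes the difference with both acids lay below the sum of the single differences (interaction called below 0, background 1.47%), and 0 lay above it; after scaling these were 22 (background 1.62%). The median interaction was -0.39 under both scalings. The 21 became 7 without the first FA library, and 8 to 11 without any of the 3 MMA libraries, the first or second library with both acids, or the first or the third control library. Nusap1 had -0.47 (limma adjusted p = 0.015), Cdk1 -0.43 (limma adjusted p = 0.0121), Top2a -0.40 (limma adjusted p = 0.0292) and Bub1b -0.35 (limma adjusted p = 0.0217). Hmmr had -0.17 and Mki67 -0.34, and neither passed.

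**Figure D3:**
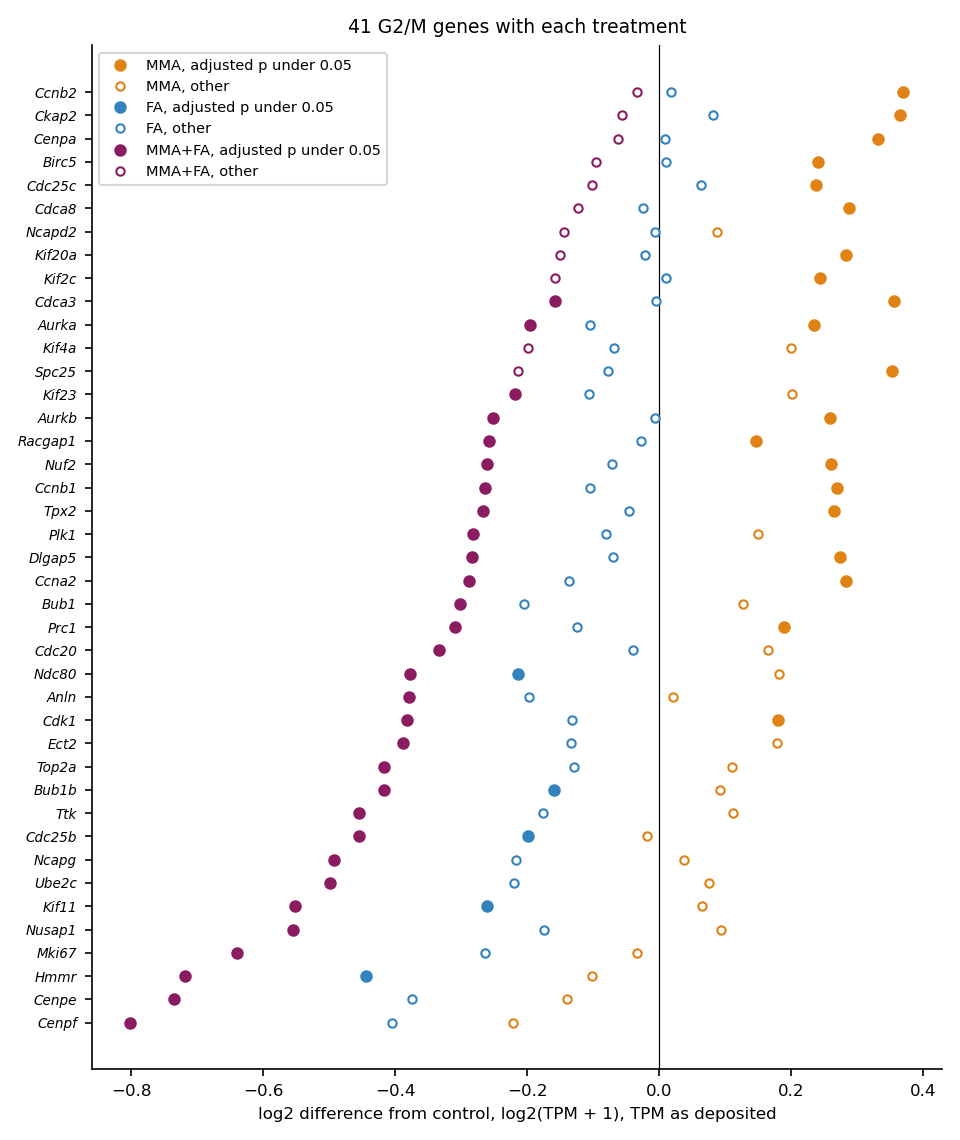
Log2 difference from control (x, TPM as deposited) of the 41 G2/M genes (y, ordered by their MMA+FA difference) with MMA (orange), FA (blue) and MMA+FA (purple); filled points passed the limma test. All 41 MMA+FA points lie left of 0 and of their MMA point, and 36 of the 41 MMA points lie right of 0.

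The promoters of Cdk1 and Nusap1 are shown because G2/M genes share a known pair of elements, a CCAAT box (CCAAT, bound by NF-Y) and the cell cycle genes homology region (CHR, TTTGAA, bound by the DREAM and MuvB complexes). Capitals mark both, on either strand, in the same kind of window from the RefSeq table of GRCr8. Cdk1 lies at chr20:19265043-19265342 and Nusap1 at chr3:127057045-127057344, both on the plus strand.
Cdk1: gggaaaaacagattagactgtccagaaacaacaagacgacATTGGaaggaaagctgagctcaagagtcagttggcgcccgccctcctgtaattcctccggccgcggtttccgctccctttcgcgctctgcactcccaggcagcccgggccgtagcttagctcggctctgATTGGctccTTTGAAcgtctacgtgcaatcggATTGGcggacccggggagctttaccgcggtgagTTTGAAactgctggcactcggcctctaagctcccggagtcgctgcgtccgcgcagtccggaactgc
Nusap1: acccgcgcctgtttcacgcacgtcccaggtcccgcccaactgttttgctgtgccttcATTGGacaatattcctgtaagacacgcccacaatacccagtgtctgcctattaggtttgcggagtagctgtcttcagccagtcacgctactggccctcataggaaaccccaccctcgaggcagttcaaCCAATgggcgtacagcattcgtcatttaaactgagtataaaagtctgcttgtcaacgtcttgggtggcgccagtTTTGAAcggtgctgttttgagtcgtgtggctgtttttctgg
The Cdk1 window holds 3 CCAAT boxes, all of them on the other strand and so read here as ATTGG, and 2 CHR elements. The Nusap1 window holds 2 CCAAT boxes, 1 on each strand, and 1 CHR element. Among the 36 G2/M genes with a promoter, 29 (80.6%) held a CCAAT box, 26 (72.2%) a CHR and 22 (61.1%) both. Over the 9232 genes tested with a promoter the shares were 38.8%, 11.9% and 4.9%, and over all 33469 promoters 37.5% held a CCAAT box and 18.3% a CHR. Of 38 S phase genes with a promoter, 21 (55.3%) held a CCAAT box and 2 (5.26%) a CHR. These shares describe letters in the windows and were not tested.

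S phase genes were called higher and lower against control in similar numbers as deposited. Of 45 tested, 8 rose and 7 fell as deposited (median 0.04, background 6.67% higher and 32.6% lower), and 16 rose and 2 fell after scaling (median 0.16, background 15.5% and 13.9%). The third library with both acids stood above the other 2, with a mean level of the list at 0.18 on the log2 scale relative to control against -0.03 and -0.01. Without it 4 rose and 11 fell as deposited and 9 rose after scaling, and without the third control library 5 rose as deposited and 9 after scaling. The 2 that fell after scaling became 1 without the first library with both acids or the first or second control library. MMA alone gave 18 higher and 0 lower (median 0.23, background 3.85%), and 25 higher after scaling (median 0.30, background 8.16%). The 18 became 7 without the third MMA library or the third control library and 10 without the first of either, and the 25 became 9, 11, 16 and 13 without the third MMA, the third control, the first MMA and the first control library. Tk1, thymidine kinase, was at 27.0, 31.8 and 25.2 TPM in control, 47.5, 45.4 and 55.5 TPM with MMA, 44.4, 40.7 and 42.4 TPM with FA and 43.8, 37.4 and 51.0 TPM with both. Its values with both acids overlapped those with each acid alone, and its interaction was -0.76 (limma adjusted p = 0.0292). Mcm6, of the replicative helicase, rose by 0.64 ± 0.13 and Chaf1b, a histone chaperone, by 0.42 ± 0.10. Rpa2, which coats single-stranded DNA, fell by 0.39 ± 0.05 with both acids and rose by 0.17 with MMA alone, with an interaction of -0.40 (limma adjusted p = 0.0146).

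**Figure D4:**
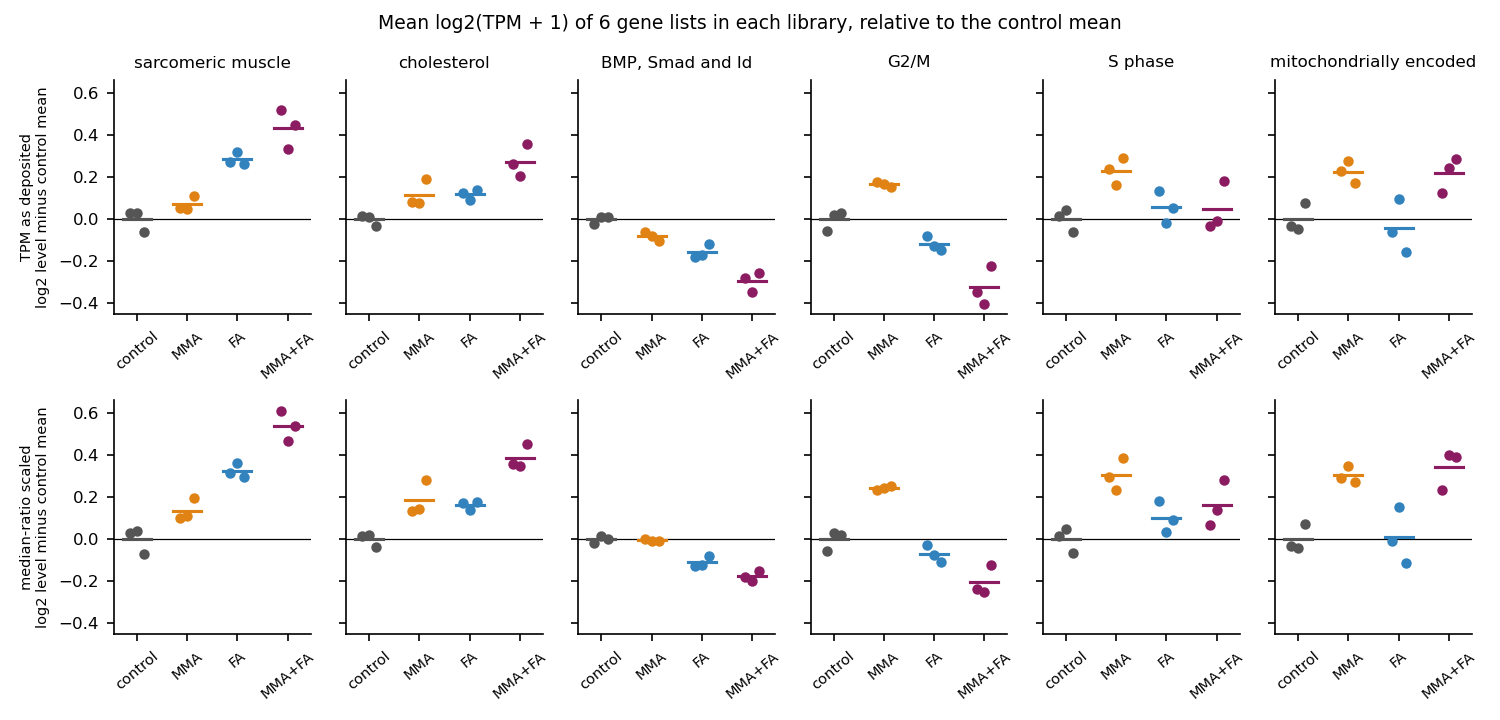
Mean log2(TPM + 1) of 6 gene lists in each library (y, relative to the control mean) by group (x), with TPM as deposited (top row) and median-ratio scaled (bottom row); lines are group means. In both rows the muscle and cholesterol lists are highest and the G2/M list lowest with MMA+FA, while the mitochondrially encoded list is as high with MMA alone as with MMA+FA.

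Among transcripts of mitochondrial DNA, those called were higher with both acids. All 13 were tested, 6 rose and 0 fell as deposited (median 0.26, background 6.67% higher and 32.6% lower). After scaling 9 rose (median 0.38, background 15.5%). Mt-nd3, a subunit of complex I, was at 5373, 5523 and 6004 TPM in control and 7602, 8104 and 8363 TPM with both acids, 0.51 ± 0.06 (limma adjusted p = 0.00012). Mt-nd4l rose by 0.35 ± 0.06, Mt-nd1 by 0.38 ± 0.07 and Mt-nd2 by 0.28 ± 0.07, all of them complex I subunits as well. Against FA alone 7 of the 13 were higher (background 1.6%). The 7 became 4 without the first or the third FA library or the second or the third library with both acids. Against MMA alone 0 differed by limma, and 0 at an unadjusted p under 0.05. With MMA alone 6 rose against control (background 3.85%). Nuclear genes of oxidative phosphorylation had 7 of 67 higher and 4 lower as deposited (median -0.02, background 6.67% and 32.6%). After scaling 22 were higher and 0 lower (median 0.10, background 15.5% and 13.9%). The 7 became 3 without the first library with both acids, and the 4 became 2 without the third. Lonp1, the protease of the mitochondrial matrix, fell by 0.53 ± 0.07.

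Most called genes of folate and cobalamin metabolism differed by small amounts. Of 30 tested folate and methionine cycle genes, 15 fell and 4 rose as deposited (median -0.16, background 32.6% lower and 6.67% higher). After scaling 1 fell and 7 rose (median -0.04, background 13.9% and 15.5%), so the falls depend on the scale. The 15 became 9 without the second library with both acids, and the 7 became 4 without the third control library. Slc19a1, the reduced folate carrier, rose under both: 14, 14.2 and 14.3 TPM in control against 17.1, 17.8 and 18.0 TPM, 0.29 ± 0.05 and 0.41 scaled. With FA alone it rose by 0.32. Sardh, sarcosine dehydrogenase, rose by 0.27 ± 0.06. Mthfs, which returns formyltetrahydrofolate to use, was the gene that fell under both, by 0.49 ± 0.09 and 0.38. Mtr, methionine synthase, fell by 0.23 ± 0.05 as deposited (limma adjusted p = 0.0023) and was at -0.11 scaled (limma adjusted p = 0.0601). Mthfd2, a mitochondrial folate enzyme, was at 289, 295 and 280 TPM in control and 286, 247 and 263 TPM with both acids, with overlapping groups and no call (-0.12 as deposited and 0.01 scaled).

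Among 29 tested genes of propionate and cobalamin metabolism, 9 fell and 2 rose as deposited (median -0.06), shares near the background of 32.6% and 6.67%. After scaling 1 fell and 7 rose (median 0.06, background 13.9% and 15.5%). The 7 became 3 or 4 without the first or second library with both acids or the first or the third control library. Mmut, the mutase, was at 9.65, 10.4 and 10.5 TPM in control and 8.92, 7.93 and 9.53 TPM with both acids, -0.19 ± 0.09 and not called (limma adjusted p = 0.108). Tcn2, which carries cobalamin in plasma, was at -0.15 (limma adjusted p = 0.077), although it fell by 0.26 with MMA alone. Abcd4, which moves cobalamin out of the lysosome, went from 24.0, 26.5 and 25.2 TPM to 21, 18.7 and 16.9 TPM, -0.40 ± 0.07, and -0.29 scaled. It was not called with MMA (-0.03) or with FA (0.03), and was lower with both acids than with either (-0.37 and -0.43). After scaling, its call was lost without the third library with both acids or without the second control library (highest limma adjusted p = 0.0545).

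Redox and iron genes were mostly lower as deposited. Of 39 tested NRF2 targets and antioxidant enzymes, 22 fell and 4 rose as deposited (median -0.18, background 32.6% lower and 6.67% higher). After scaling 15 fell and 7 rose (median -0.05, background 13.9% and 15.5%). The 4 became 2 without the second control library, and the 7 became 4 without the second library with both acids. Hmox1, heme oxygenase, went from 309, 285 and 322 TPM to 192, 214 and 173 TPM, -0.66 ± 0.07 as deposited and -0.54 scaled (limma adjusted p = 6.28e-05 as deposited). It was lower than with MMA (-0.41) and with FA (-0.51). Gclc, which starts glutathione synthesis, fell by 0.45 ± 0.05. Abcc4, an efflux pump, and Prdx3, the mitochondrial peroxiredoxin, fell by 0.58 ± 0.07 and 0.35 ± 0.04. Of 19 tested iron genes 10 fell and 1 rose as deposited (median -0.16), beside the same backgrounds. After scaling 5 fell and 4 rose (median -0.04). The 4 became 2 without the first library with both acids or the first or second control library. Ftl1, the light chain of ferritin, was at 5249, 4953 and 5497 TPM in control and 3824, 3933 and 3392 TPM with both acids, -0.50 ± 0.05. Slc40a1, the iron exporter ferroportin, fell by 0.61 ± 0.09 and the importer Slc39a14 by 0.47 ± 0.06.

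ATF4 is a stress factor that raises genes of amino acid synthesis and tRNA charging. Atf4 itself was at 604, 632 and 627 TPM in control and 742, 729 and 727 TPM with both acids, 0.24 ± 0.03 higher. Of 38 tested genes of the list, 27 fell and 2 rose as deposited (median -0.20, background 32.6% lower and 6.67% higher). After scaling 9 fell and 3 rose (median -0.07, background 13.9% and 15.5%). The 9 became 5 without the third library with both acids or the second control library. Wars1, the tryptophan tRNA ligase, fell by 0.39 ± 0.05 and by 0.27 scaled. Among 21 tested glycolysis genes 3 rose and 5 fell as deposited (background 6.67% and 32.6%), and 8 rose and 2 fell after scaling (background 15.5% and 13.9%); the 5 became 3 without the second or the third library of either group, and the 8 became 5 without the third library with both acids. Among 25 tested genes of fatty acid oxidation, 3 rose and 5 fell as deposited, and 6 rose and 3 fell after scaling, beside the same backgrounds. The falls in that list were no more frequent than over all genes. Pfkm and Ldhb, of glycolysis and lactate turnover in muscle and heart, rose by 0.63 ± 0.07 and 0.61 ± 0.06, and Ldhb went from 222, 212 and 198 TPM to 318, 298 and 355 TPM. Cpt1a, which admits fatty acids to mitochondria, went from 27.4, 26.2 and 29.7 TPM to 17.1, 17.4 and 17.3 TPM, -0.66 ± 0.06. Hadhb, of fatty acid oxidation, and Slc16a1, the carrier of lactate and other monocarboxylates, fell by 0.47 ± 0.07 and 0.50 ± 0.07.

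A larger share of lysosome genes than of all genes was called higher with both acids than with MMA alone. Of 52 tested autophagy and lysosome genes, 18 fell and 3 rose against control as deposited (median -0.09), near the background of 32.6% and 6.67%, and 5 fell and 10 rose after scaling (median 0.03, background 13.9% and 15.5%). MMA alone gave 33 lower and 0 higher (median -0.20, background 16.5%), and 20 lower and 1 higher after scaling (median -0.12, background 6.9%); the 20 became 10 to 13 without any library of that comparison. With both acids 18 were higher and 1 lower than with MMA alone (background 4.19% higher; 21 and 1 after scaling, background 6.39%); the 18 became 10 without the first library with both acids. The interaction was called above 0 for 16 and below 0 for 0 (background 0.938%; 16 after scaling, background 1.04%), and for 7 to 9 as deposited without the second or the third MMA library, the first FA library, the second library with both acids, or the first or the third control library. Npc1, which moves cholesterol out of the lysosome, was at 28.0, 27.9 and 28.8 TPM in control, 20.4, 19.8 and 18.7 TPM with MMA, 23.9, 22.8 and 22.7 TPM with FA and 25.3, 23.3 and 21.9 TPM with both, with an interaction of 0.53 (limma adjusted p = 0.0116). Fnip1, a partner of folliculin at the lysosome, fell by 0.55 with MMA, 0.46 with FA and 0.43 with both, with an interaction of 0.58 (limma adjusted p = 0.0216). Lyset and Atp6v0b, a trafficking factor of lysosomal enzymes and a subunit of the proton pump, had the interactions 0.75 (limma adjusted p = 0.0112) and 0.62 (limma adjusted p = 0.00849): both were lower with MMA (-0.57 and -0.47) and with FA (-0.43 and -0.36). With both acids they were at -0.24 and -0.20 as deposited, and at -0.12 and -0.08 after scaling, where neither was called (limma adjusted p = 0.275 and 0.33). The deposited call of Lyset was lost without the first or the third library with both acids or the first or the third control library (highest limma adjusted p = 0.111). Ctsl, the protease cathepsin L, fell by 0.74 ± 0.06 with both acids and by 0.65 with FA alone.

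Against the single acids the counts were smaller. With both acids 4.19% of genes were called higher and 9.53% lower than with MMA alone (6.39% and 6.19% scaled). Against FA alone 1.6% were higher and 8.9% lower (3.43% and 2.46% scaled), but this comparison rested on the other groups and on single libraries: 23 genes were called when only these 6 libraries were fitted, against 1288 with all 12, and 2010 without the second FA library, 357 and 505 without the first and the third, and 362 and 431 without the second and the third libraries with both acids. Against MMA alone the 1683 called became 869 and 868 without the first and second MMA libraries. The interaction was called for 295 genes and 326 scaled, and for 496 without the second FA library, 287 without the third FA library, 281 without the third library with both acids and 85 to 182 without each of the other libraries. Part of the muscle rise was present with FA alone, where 3.67% of all genes were called higher than in control. Of the members named above, Tnnt2 (1.42), Lmod3 (0.54), Acta1 (0.52), Myl4 (0.49), Tnnc1 (0.34) and Casq2 (0.23) were called higher there. Trim63 (0.17), Myoz2 (0.07) and Tnnt3 (-0.33) were not called. Of 24 muscle genes tested, 10 were called higher with both acids than with MMA and 6 than with FA as deposited, beside 4.19% and 1.6% of all genes. In both comparisons 0 were called lower, and the other muscle genes were not called. The 6 became 3 without the third FA library or the third library with both acids. Anxa5, a membrane-binding annexin, rose by 0.68 ± 0.04 against control with the interaction at 0.35 (limma adjusted p = 0.017). Map3k7cl and Gmpr, the latter a reductase of guanosine nucleotides, rose by 0.91 ± 0.11 and 0.90 ± 0.09 and were also higher than with either acid.

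**Figure D5:**
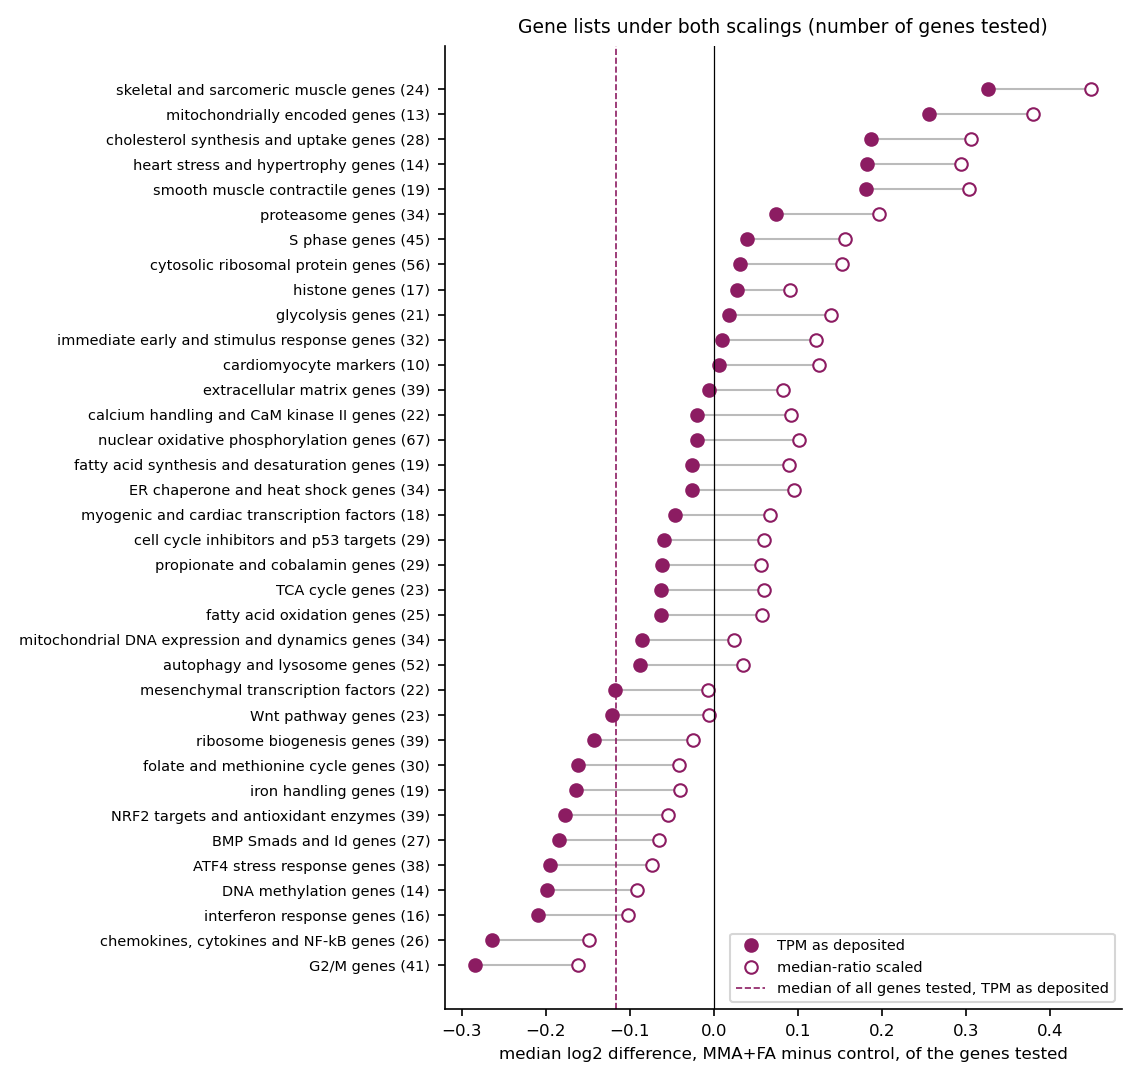
Median log2 difference between MMA+FA and control (x) of each gene list with at least 10 genes tested (y, number tested in brackets), with TPM as deposited (filled) and median-ratio scaled (open); the dashed line is the median of all genes tested, -0.12. Each list lies further right after scaling. The muscle, mitochondrially encoded and cholesterol lists are right of 0 and the G2/M and chemokine lists left of 0 under both.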

How the data were processed

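RNA was measured by poly(A) RNA-seq in 12 libraries of H9c2 cells, 3 in each of 4 groups, grouped by their titles. Per the labels' protocols, TRIzol extraction preceded a stranded mRNA library kit. Per the submitters' processing notes, fastp and HISAT2 were used with the rat build mRatBN7.2; the table carries RSEM in its title, and its versions and annotation are not given in the labels. The authors deposited 1 table of TPM per gene. TPM keeps no read depth, so the depth is unknown and no counting interval is given.

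Genes averaging 1 TPM or more across all 12 libraries entered the fit. Values were taken as log2(TPM + 1), which understates changes of low genes, and fitted with limma 3.58.1 in R 4.3.3 (4 group means, trend in the variance, all 12 libraries, 8 residual degrees of freedom), with Benjamini-Hochberg adjustment over all genes tested. The same fit was run on TPM scaled by the median ratio over genes. The interaction is the difference with both acids minus the sum of the single differences. Comparisons with MMA, FA and both share the control libraries. The script was tested on simulated data. Libraries of a group correlated at 0.987 to 0.992 and none were identical.

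The comparison, its gene lists and the rule for named genes were chosen with earlier results of these data known. The rule took the 15 largest differences in each direction among genes called under both scalings without overlap, the 5 genes with the smallest p of each of 40 lists, Mtr, Mthfd2, Mmut, Tcn2 and the cardiomyocyte markers, the 10 largest in each direction called against all 3 other groups, and the 8 largest interactions in each direction; a part of these is named. Myog, Mki67, Top2a, Lbr, Ebp, Sc5d, Tnnt3 and Myoz2 fall outside the rule and were chosen after their values were seen. Alternatives covered scaling, quantile normalization, pseudocounts, filters, array weights, a replicate block and each library left out. Promoters are from the RefSeq table of GRCr8, and where a symbol has several loci, the one of highest mean TPM stands for it.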

Additional observations from a re-analysis of the deposited data

Results flagged for a closer look

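For 21 of the genes named, the difference between both acids and control departed from the sum of the differences with MMA alone and FA alone (limma interaction, adjusted p under 0.05, TPM as deposited). Some of these genes were named because their interaction was called, so the count of 21 partly reflects that choice. Over all genes tested the interaction was called above 0 for 0.938% and below 0 for 1.47%. Above the sum were Acta1 (0.82), Trim63 (0.55), Vcl (0.33) and Fhl2 (0.33), genes of muscle structure and its turnover, the endothelin receptor Ednra (0.44), the annexin Anxa5 (0.35), and Lyset (0.75), Atp6v0b (0.62), Fnip1 (0.58) and Npc1 (0.53) of the lysosome. Below it were the cell cycle genes Tk1 (-0.76), Nusap1 (-0.47), Cdk1 (-0.43), Rpa2 (-0.40), Top2a (-0.40) and Bub1b (-0.35), and the linker histone gene H1f10 (-0.95), the RNA-binding protein gene Rbm3 (-0.67), the Wnt inhibitor gene Wif1 (-0.67), the kinase gene Pim1 (-0.63) and the collagen gene Col11a1 (-0.42).

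These interactions took different shapes. Rbm3 averaged 249 TPM in control, 414 TPM with MMA, 355 TPM with FA and 371 TPM with both, a level with both acids between those with each acid alone. Col11a1 averaged 36.1, 34.7, 35.3 and 25.2 TPM in the same order, and was lower with both acids than in each other group (limma adjusted p = 0.000202 against control, 0.000965 against MMA and 0.00322 against FA). Wif1 averaged 11, 12.4, 11.7 and 7.97 TPM in that order, and was also lower with both acids than in each other group (0.0021, 0.000814 and 0.00702); after scaling its difference from control was -0.31, a call lost without the third library with both acids (limma adjusted p = 0.0607). H1f10 was at 70.9, 59.1 and 59.2 TPM in control and 47.2, 44.9 and 47.2 TPM with both acids, and its fall of 0.43 as deposited was not called after scaling.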

How the results depend on the processing

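The comparison of both acids with control called 4818 genes as deposited and between 3303 and 5571 under the alternatives, and 3605 to 4106 with 1 library left out (scaled 3608, and 2475 to 2946). Against MMA alone, array weights gave 2917 calls in place of 1683, and leaving out 1 library gave 868 to 1696 (scaled 877 to 1543). Against FA alone, median-ratio scaling gave 723 in place of 1288, quantile normalization 507, no filter 699, array weights 4485, the replicate block with scaling 568, and a fit of only the groups compared 23; leaving out 1 library gave 357 to 2010 (scaled 224 to 1464). For the interaction, no filter gave 181 in place of 295, array weights 1810, and the replicate block with scaling 213 in place of 326; leaving out 1 library gave 85 to 496 (scaled 80 to 545), and a fit of only the groups compared could not be run. The cause of these shifts was not tested.

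The replicate numbers did not pair the libraries: same-numbered libraries with both acids and control deviated from their group means with r = 0.087, -0.029 and -0.040 across genes. With a replicate block 4591 genes were called against control, 1515 against MMA, 966 against FA and 214 for the interaction.

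Of 112 named genes, 103 were called as deposited, 99 of these in all 6 fits that left out a library. After scaling 98 were called, 94 of these in all 6. The rule for named genes favoured called genes and the smallest p of each list, so high counts were built in. Over all 12263 genes tested, 4818 were called as deposited and 3608 after scaling. Apart from the scaled fits that left out a library, directions reversed for 3 genes. Mthfd2 went to 0.005 with scaling, with and without the replicate block. Nkx2-5 ran from -0.0355 without the third library with both acids to 0.1024 without the second, with -0.0182 without the third control library. Atp2a2 went to 0.1063 with scaling, with and without the replicate block, and 0.0279 with quantile normalization. In the scaled fits that left out a library, Mthfd2 ran from -0.0434 to 0.0405 and Tcn2, below 0 as deposited, from -0.0837 to 0.0299. TPM carries no depth, so the precision of low genes cannot be given.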

Other observations

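Genes of protein turnover moved with the scale. Over all genes tested, 6.67% were called higher and 32.6% lower as deposited, and 15.5% and 13.9% after scaling. These are the backgrounds for the lists below. Of 56 tested cytosolic ribosomal protein genes, 15 rose and 3 fell with both acids as deposited (median 0.03), and 29 rose and 0 fell after scaling (median 0.15); the 15 became 9 without the third control library, and the 3 became 0 or 1 without the first or the third library with both acids or the first or second control library. Of 34 tested proteasome genes, 8 rose and 3 fell (median 0.07), and 23 rose after scaling (median 0.20); the 3 became 1 without the second library with both acids or the third control library. Ribosome biogenesis genes went the other way as deposited, with 19 of 39 lower and 1 higher (median -0.14). The 1 became 0 without any of the 6 libraries. After scaling 5 were lower and 2 higher (median -0.02), neither more frequent than over all genes. Of 14 tested genes of DNA methylation, 8 fell and 0 rose as deposited (median -0.20), and 3 fell after scaling (median -0.09); the 8 became 4 or 5 without the second library with both acids or without any control library, and the 3 became 1 without the third library with both acids.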
